A study of Mus musculus with 36 samples.

Results

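The methylation of CpGs was followed in mouse liver at 10 genes that are normally used in germ cells, namely Dazl, Ddx4, Mael, Asz1, Tdrd1, Sycp1, Sycp3, Brdt, Tex101 and Dpep3. They are 10 of the 21418 autosomal protein-coding genes of the mm9 annotation. They were chosen by name as germline genes silenced by promoter methylation, with earlier results of these data known. For each gene, all CpGs within 1 kb of any annotated start site were taken as the promoter, and the rest of the gene as the gene body. All 10 promoters and all 10 gene bodies had enough CpGs and reads to be tested.

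Methylation was measured by shotgun whole-genome bisulfite sequencing of DNA from pulverized liver, in which unmethylated cytosines are converted and methylated ones are not. The parents came from 2 inbred strains, which were C57BL/6N (called B6) and C3H/HeN (called C3), and the progeny from both crosses, B6C3F1 from B6 dams with C3 sires and C3B6F1 from C3 dams with B6 sires. Each of the 8 groups, male and female of B6, C3, B6C3F1 and C3B6F1, held 3 animals, 24 in all. No group carried a transgene or a treatment. The B6 and C3 animals were the parents, so the B6 and C3 females were dams that had borne and nursed pups, the B6 and C3 males were sires, and the F1 females were virgin. Parents and progeny were therefore related, and parity, generation and genotype cannot be told apart in a comparison of dams with F1 females. Sex and parity cannot be told apart in a comparison of sires with dams. Depth ranged from 19.4 to 32.8 reads per CpG over the animals (365740739 to 619888157 autosomal counts). Whole liver holds hepatocytes and other cells, and a change in the share of a cell type and a change of methylation within cells cannot be told apart in such DNA. RNA was not analysed here, so that the silence of these genes in liver is background and not a measurement.

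Germline genes are needed for the making of eggs and sperm and are shut in nearly all somatic cells. Many of them have CpG-rich promoters, and unlike most CpG-rich promoters these receive DNA methylation early in embryonic development and keep it in the body's tissues. In primordial germ cells the mark is erased, and genes such as Dazl and Ddx4 come on. The methyltransferase DNMT3B and a Polycomb complex with the DNA-binding proteins E2F6, MGA and MAX are known for their part in setting up this repression.

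The stretches just upstream of the start carry the finding most plainly, and 5 of them are shown because they differ in CpG content, in level and in the letters around their CpGs. Each is the 200 bases directly before the reference start (the most 5′ start of the transcripts with a consensus coding sequence), from mm9, 5′ to 3′ on the strand of the gene, with every CG in capitals. Dazl lies at chr17:50432925-50433124 (minus strand), Ddx4 at chr13:113442519-113442718 (minus), Sycp1 at chr3:102740024-102740223 (minus), Sycp3 at chr10:87922114-87922313 (plus) and Tdrd1 at chr19:56900499-56900698 (plus).
Dazl: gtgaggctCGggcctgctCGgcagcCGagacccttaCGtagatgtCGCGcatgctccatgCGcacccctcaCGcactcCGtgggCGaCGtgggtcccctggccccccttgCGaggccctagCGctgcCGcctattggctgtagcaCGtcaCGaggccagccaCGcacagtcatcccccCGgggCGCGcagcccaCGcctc
Ddx4: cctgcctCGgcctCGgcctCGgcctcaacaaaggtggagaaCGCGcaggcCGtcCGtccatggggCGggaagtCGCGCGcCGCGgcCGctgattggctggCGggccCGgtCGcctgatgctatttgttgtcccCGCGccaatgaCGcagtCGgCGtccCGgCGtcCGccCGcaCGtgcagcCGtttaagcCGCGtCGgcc
Sycp1: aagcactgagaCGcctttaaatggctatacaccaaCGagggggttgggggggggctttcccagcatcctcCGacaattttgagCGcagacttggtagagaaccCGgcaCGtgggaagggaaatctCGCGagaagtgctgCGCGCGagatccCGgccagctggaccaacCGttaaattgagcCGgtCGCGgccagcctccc
Sycp3: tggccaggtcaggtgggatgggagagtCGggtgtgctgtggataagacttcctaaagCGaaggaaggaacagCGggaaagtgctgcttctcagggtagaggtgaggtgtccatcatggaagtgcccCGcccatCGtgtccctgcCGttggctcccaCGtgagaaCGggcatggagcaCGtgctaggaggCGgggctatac
Tdrd1: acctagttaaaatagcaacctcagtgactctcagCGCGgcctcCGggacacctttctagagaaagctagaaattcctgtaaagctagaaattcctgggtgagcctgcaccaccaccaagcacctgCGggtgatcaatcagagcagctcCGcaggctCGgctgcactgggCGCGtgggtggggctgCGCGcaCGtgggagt

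The Dazl stretch held 21 CpGs, each methylated between 95.1% and 99.2% when the 24 animals were summed. The Sycp1 stretch held 16 CpGs at 92.9% ± 2.52 (SD over 24 animals), and the Sycp3 stretch 10 CpGs at 83.1% ± 3.92. Of the 31 CpGs of the Ddx4 stretch only 16 were in the deposited table, and these stood at 79.1% ± 8.53. The 11 CpGs of the Tdrd1 stretch stood at 53.4% ± 8.74 and ran from 22.1% to 78.5%. Dazl was thus nearly fully methylated over this stretch, and Tdrd1 held both methylated and unmethylated reads at every CpG shown.

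In liver of all 8 groups the promoters of the 10 genes were methylated, and at the start sites far more so than those of most genes. The genes were chosen as cases of silencing by promoter methylation, so the contrast with all genes follows in part from that choice. In each list of other germ cell genes, given below, some starts were under 20%. Within 250 bp of the reference start, the median of the 10 genes was 88.7%, against 0.876% over the 17160 genes with enough CpGs there. This narrow window, called the start below, was chosen after the data were seen. At the start 8 of the 10 genes were over 80% and the other 2 were between 20% and 80%. Of the 17160 genes tested there, 11.5% were over 80% and 75.2% were under 20%. Genes with too few CpGs or reads at the start are not among them. Over the wider window of 1 kb the median was 85.1%, against 37.02% for all 20635 promoters tested, and 7 of the 10 genes were over 80% (14.5% of all promoters). Of the 861 CpGs of the 10 promoters, 583 were over 80%, 171 between 20% and 80%, and 107 under 20%.

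High methylation of these starts did not go with low CpG density. Of the genes, 5 (Dazl, Ddx4, Mael, Tdrd1 and Sycp1) fell into the high CpG class, defined by GC content over 55% and an observed to expected CpG ratio over 0.75 in some 500-bp window around the start, and the other 5 into the intermediate class. Among the 10468 high-class genes tested at the start, 97.6% were under 20% and only 0.459% were over 80%. Dazl, Sycp1 and Mael belonged to that small share, and Ddx4 stood just below the limit at 79.3%. High levels were less rare in the intermediate class. Of its 3815 genes tested at the start, 21.3% were over 80%, as were its 5 genes of the list, and 59.45% were under 20%. Density at the start ran from 4.99 to 11.8 CpGs per 100 bp over the 10 genes, and the median of all genes was 4.99. Across the 10 genes, density and level were hardly related (Pearson r of -0.15 and Spearman rho of -0.14 over 10 genes, which share the same 24 libraries).

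**Figure D1:**
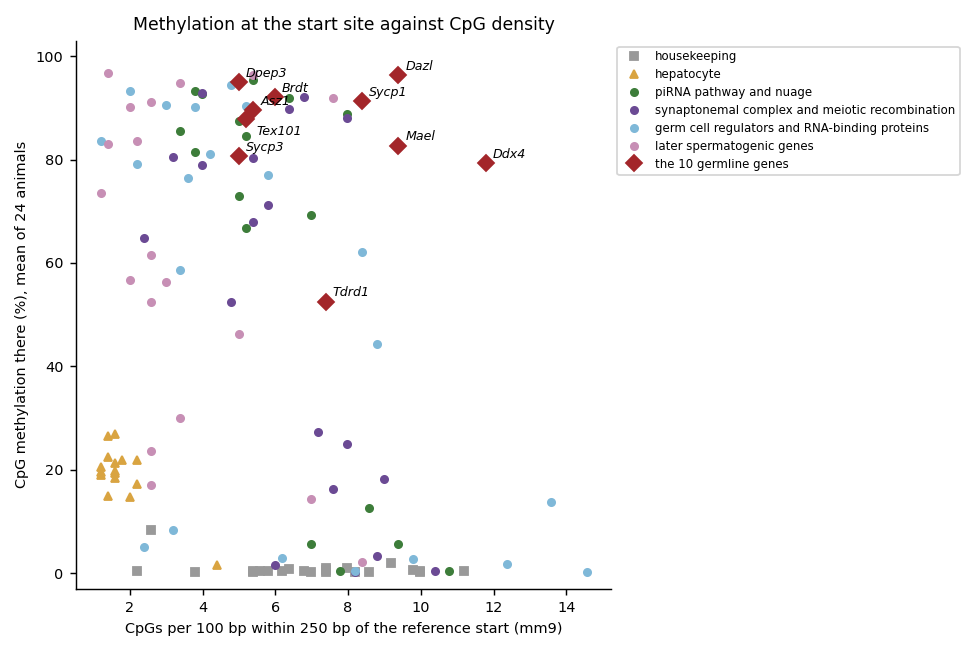
Methylation (%, mean of 24 animals) within 250 bp of the reference start against CpGs per 100 bp there, for the 10 germline genes (diamonds), 4 lists of other germ cell genes, housekeeping genes and hepatocyte genes, 1 point per gene. The 10 genes sit between 52.5% and 96.3% and the 22 housekeeping genes all under 20%, at densities of up to 11.8 and 11.2 CpGs per 100 bp.

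The regulators and RNA-binding proteins of germ cells come first. Dazl, an RNA-binding protein that controls translation in germ cells, was the most methylated start of the list, at 96.3% ± 0.819 over its 47 CpGs, with all animals between 94.7% and 97.6%. Ddx4, the vasa RNA helicase, stood at 79.3% ± 6.74, with animals from 60.9% to 90%. In the 3 B6 males the Ddx4 start was at 60.9%, 79.9% and 76.7%, and in the 3 C3 females at 84.4%, 90% and 83.8%. The C3B6F1 males, at 65.3%, 75.8% and 72.4%, were the lowest group and the C3 females the highest. Only 26 of the 59 CpGs at the Ddx4 start were in the table, none of them between 93 bp before and 188 bp after the start, and the depth there was 15.0 reads per CpG in B6 parents and 8.12 in C3 parents.

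The piRNA and nuage genes followed. Mael, which acts in the silencing of transposons by piRNAs, was at 82.7% ± 3.40 at the start. Asz1, a scaffold protein of the nuage at mitochondria, was at 89.6% ± 1.64. Tdrd1, a tudor domain protein that binds PIWI proteins, was the exception of the list at 52.5% ± 9.58. The Tdrd1 start read 44.0%, 55.8% and 44.0% in the B6 males, 40.8%, 51.8% and 51.7% in the B6 females, 56.4%, 58.5% and 54.7% in the C3 males and 60.9%, 72.2% and 65.8% in the C3 females. The F1 animals read 40.6%, 49.0% and 52.2% (B6C3F1 males), 60.8%, 55.9% and 64.7% (B6C3F1 females), 31.6%, 40.8% and 54.6% (C3B6F1 males) and 45.0%, 47.0% and 61.2% (C3B6F1 females). The C3 females were the highest group and the C3B6F1 males the lowest, and no animal was under 20% or over 80%.

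The genes of meiotic chromosomes, and the remaining genes Brdt, Tex101 and Dpep3, were methylated in every animal. Sycp1, which forms the transverse filaments of the synaptonemal complex, was at 91.3% ± 1.78 at the start, and Sycp3, a component of its axial elements, at 80.7% ± 4.08. Sycp3 lies within Chpt1 on the opposite strand, so its CpGs are also CpGs of that gene (chr10:87915490-87966818 in mm9). Brdt, the testis bromodomain protein that binds acetylated histones in male germ cells, was at 92.0% ± 2.02. Tex101, a cell-surface protein of germ cells, was at 87.9% ± 2.55, and Dpep3, a membrane dipeptidase of the testis, at 95.0% ± 0.909.

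From high to low the starts ran Dazl, Dpep3, Brdt, Sycp1, Asz1, Tex101, Mael, Sycp3, Ddx4 and Tdrd1. The ranges of the 24 animals overlapped between every pair of neighbours in that order, Ddx4 and Tdrd1 included. Over the window of 1 kb the order was Dpep3 (94.9% ± 0.554), Sycp1 (91.1% ± 1.02), Asz1 (89.2% ± 0.944), Ddx4 (88.5% ± 2.57), Mael (86.2% ± 2.15), Tex101 (84.0% ± 2.01), Sycp3 (80.4% ± 2.84), Tdrd1 (72.8% ± 3.28), Brdt (68.3% ± 3.51) and Dazl (63.65% ± 3.94). Here only Dpep3 and Sycp1, at the top, had ranges that did not overlap (93.7% to 95.7% and 88.8% to 93.2%).

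**Figure D2:**
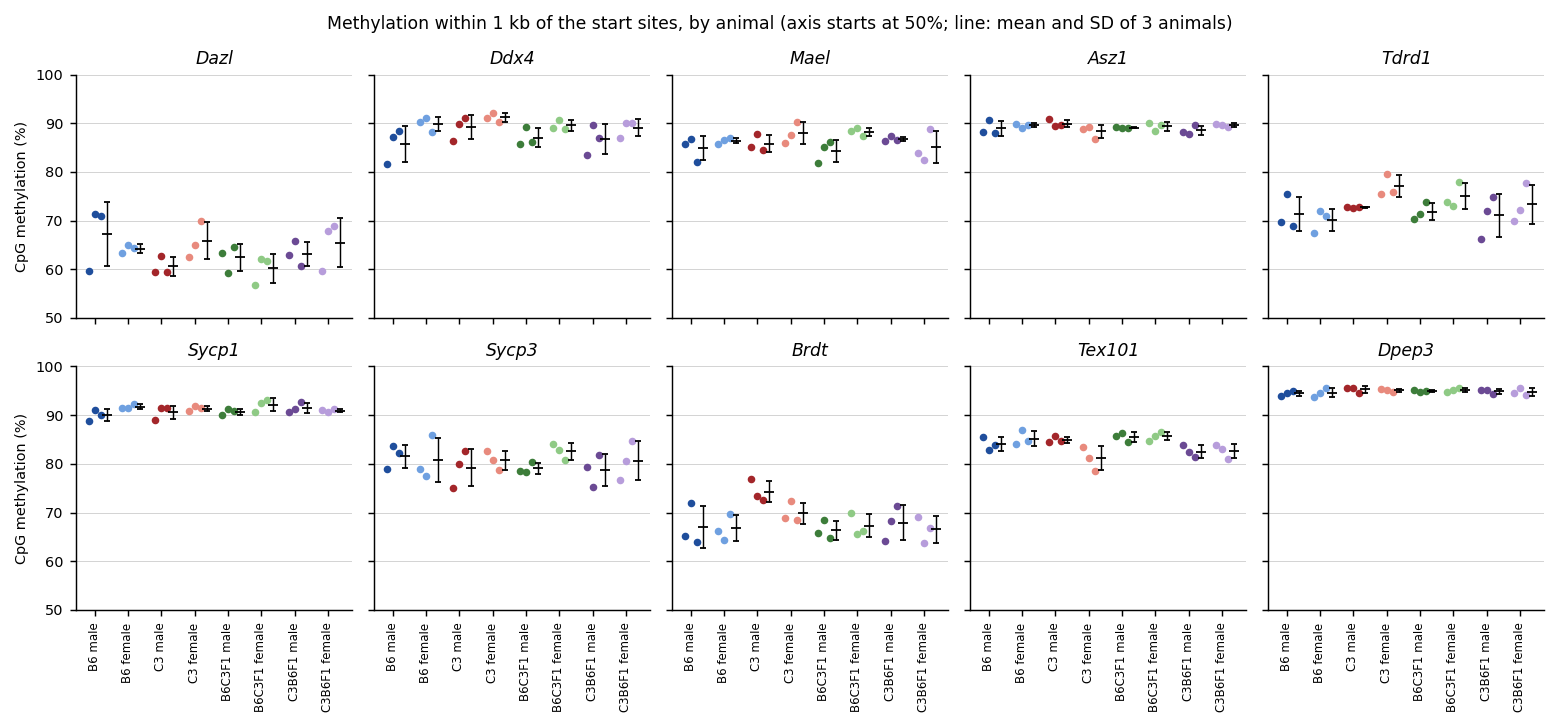
CpG methylation (%) within 1 kb of the start sites of the 10 genes, 1 point per animal, with the mean and SD of the 3 animals of each of the 8 groups (the axis starts at 50%). Dpep3 keeps within 93.7% and 95.7% in all 24 animals, while Dazl spreads from 56.8% to 71.3%.

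The spread between animals of a group, which holds biological as well as counting error, differed among the genes. Pooled within the 8 groups, the SD of the 1-kb level was 0.575 percentage points for Dpep3, 0.937 times the SD that counting alone gives at its depth, and 3.73 points for Dazl, 3.82 times the counting SD. Asz1, Sycp1 and Tex101 were at 1.22, 1.33 and 1.33 times the counting SD, and the remaining genes between 2.04 and 3.27 times. Counting SDs take each CpG call as independent, although 1 read can cover several CpGs, and leave out amplification. Where the calls of a read go together, the counting SD is too small and the ratio too large. The median within-group SD of the 10 promoters, 2.11 points, was close to that of all promoters (2.10 points). At the start itself it was 1.93 points against 0.461 points for all genes tested there, of which most were near 0% and had little room to vary.

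The lower 1-kb levels of Dazl and Brdt were not seen at their reference starts. In Dazl the methylated start was followed by 56 CpGs under 20% on 579 bp (chr17:50431855-50432433, 491 to 1069 bp downstream), which averaged 2.47% ± 1.00 over the 24 animals. This unmethylated stretch holds the second annotated start, of the coding transcript Dazl-202, 707 bp downstream of the first. Within 250 bp the second start stood at 2.96% ± 1.10, against 96.3% at the first. In successive 200-bp bins from the start, the levels were 94.7%, 90.1%, 22.7% and 0.587%, so that the change fell within the first 4 bins. It was present in all 8 groups, whose means in the stretch ran from 1.76% (B6C3F1 males) to 3.26% (C3B6F1 males).

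In Brdt, 48 CpGs on 947 bp (chr5:107788398-107789344) averaged 2.24% ± 1.09. They surround the start of the non-coding transcript Brdt-002, 28678 bp downstream of the coding start and inside the gene, which stood at 0.272% ± 0.306 within 250 bp. The coding start itself, with all CpGs within 1 kb of it, was at 93.0% ± 1.19. Stretches of at least 5 successive CpGs under 20% were found in these 2 of the 10 promoters and in 68.3% of all promoters tested. In Tdrd1, by contrast, the CpGs from 612 bp before to 22 bp after the start averaged 56.5% ± 6.32 and those from 30 to 281 bp after it 55.2% ± 9.96, and methylation was over 90% in the bin from 400 to 599 bp (90.4% ± 3.61).

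**Figure D3:**
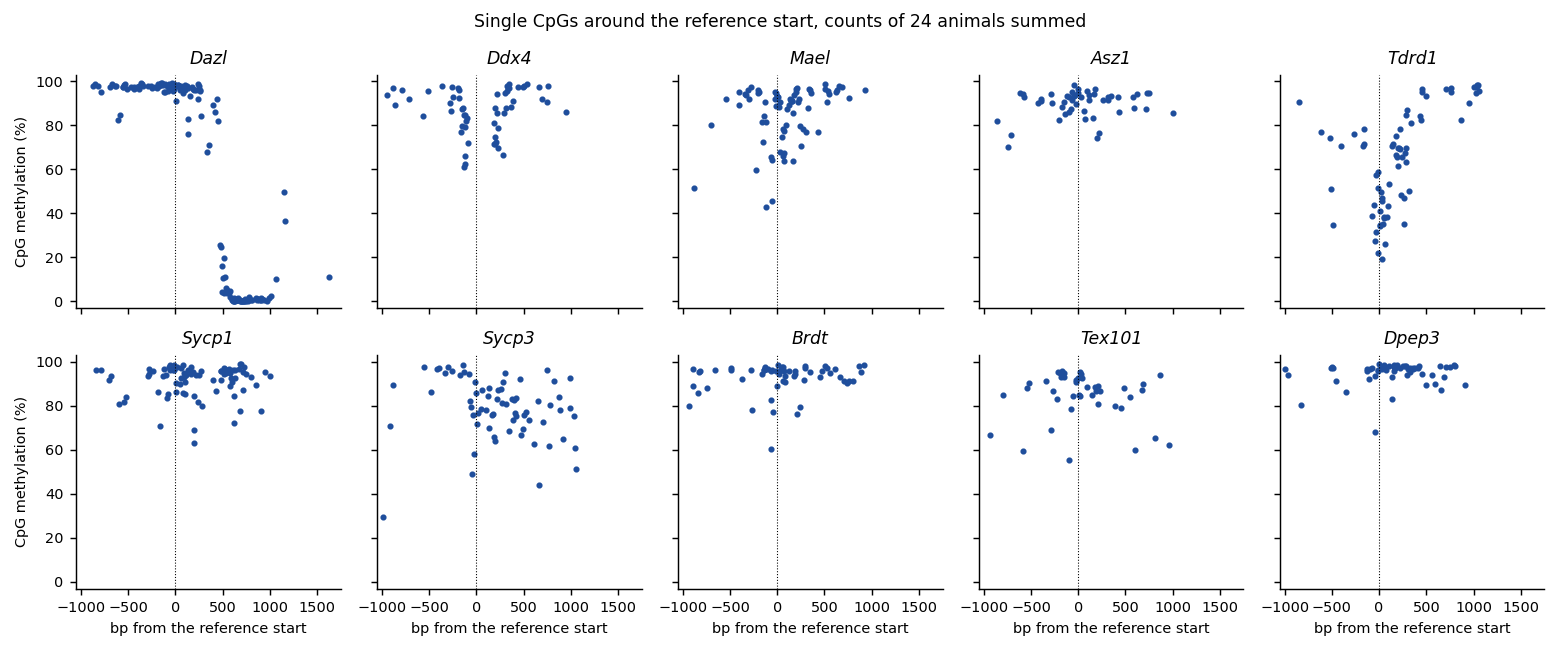
Methylation (%) of single CpGs, counts of the 24 animals summed, against the distance in bp from the reference start of each of the 10 genes (dotted line, downstream to the right). Dazl drops from 94.7% in the first 200 bp to 0.587% in the bin that begins at 600 bp, Tdrd1 dips around its start, and in Sycp3 34 of 69 and in Mael 20 of 75 CpGs lie between 20% and 80%.

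The 1-kb level is weighted by counts, so the share of counts in the unmethylated stretch enters it by construction. In Dazl the stretch took between 23.4% and 39.5% of the counts of an animal (31.1% ± 4.19), and the animal with the largest share, a B6C3F1 female, had the lowest 1-kb level (56.8%). Outside the stretch the 88 CpGs of Dazl were at 91.2% ± 1.43, with animals between 87.7% and 94.1%. When each CpG was given the same weight, the SD of the 1-kb level over the animals went from 3.94 to 0.653 points in Dazl and from 3.51 to 2.02 points in Brdt. The part of read coverage in the differences between animals was otherwise not tested.

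**Figure D4:**
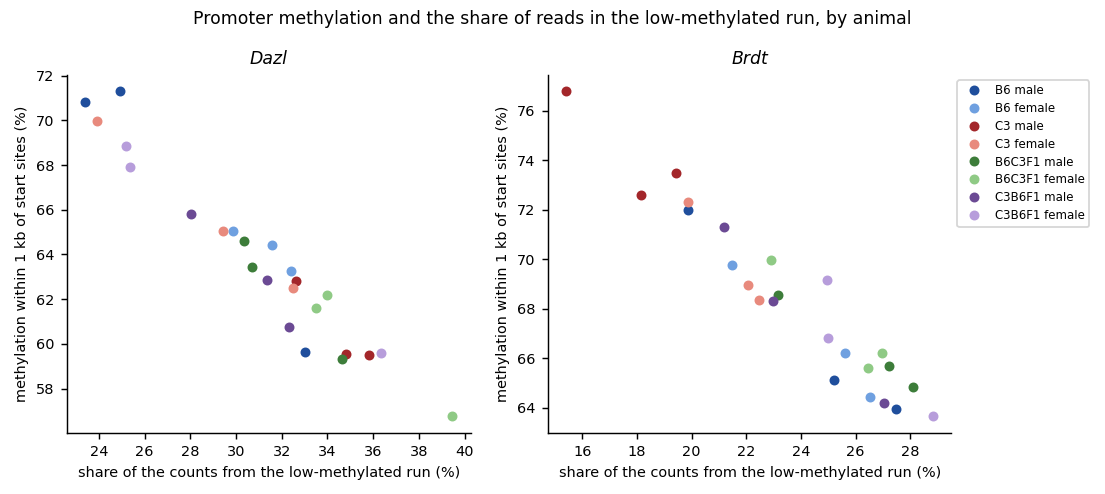
Methylation (%) within 1 kb of the start sites of Dazl (left) and Brdt (right) against the share (%) of the counts that lay in the unmethylated stretch, 1 point per animal and 1 colour per group. The level is a mean weighted by counts, so a larger share of counts in the stretch lowers it by construction, and the levels run from 71.3% to 56.8% in Dazl and from 76.8% to 63.65% in Brdt.

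The parental strains were compared first, to ask whether genotype moved these promoters. Of the 10 promoters, 1 differed between the 6 B6 and the 6 C3 parents at an adjusted p under 0.05 by limma's moderated test on the log2 ratio of methylated to unmethylated counts, against a background of 13.7% of all promoters. It was Brdt, with 65.1%, 72.0% and 64.0% in the B6 males, 66.2%, 64.4% and 69.75% in the B6 females, 76.8%, 73.5% and 72.6% in the C3 males and 68.9%, 72.3% and 68.4% in the C3 females. The C3 males were the highest group, and the ranges of the strains overlapped. The B6 parents were 5.19 points lower (66.9% ± 3.25 against 72.1% ± 3.11, n = 6 each, log2 ratio -0.35, SE 0.11, limma adjusted p = 0.0238). The F1 animals were at 67.02% ± 2.41 (n = 12).

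The Brdt difference depended on which CpGs were taken. Within 500 bp of any start site, the non-coding one included, it was -8.59 points (adjusted p = 0.00387). With coding start sites only it was -1.20 points (adjusted p = 0.242), and within 250 bp of the reference start -2.45 points (adjusted p = 0.247). With CpGs that had at least 10 reads in every animal the sign turned, at 0.34 points (adjusted p = 0.884). The share of counts in the unmethylated stretch was 24.4% ± 3.01 in the B6 and 19.6% ± 2.60 in the C3 parents, and outside the stretch the levels were 87.8% ± 1.22 and 88.9% ± 1.46. The adjusted p also went over 0.05, up to 0.077, when B6 male 1, B6 male 3, B6 female 1, B6 female 2, C3 male 1 or C3 female 2 was left out.

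The start of Tdrd1 differed between the strains in the narrow window, which was chosen after the data were seen. The adjusted p does not cover that choice. Within 250 bp of its reference start the B6 parents had a lowest, median and highest value of 40.8%, 47.9% and 55.8%, and the C3 parents 54.7%, 59.7% and 72.2%. All B6 animals but 1 were under all C3 animals. The difference was -13.4 points (47.99% ± 5.89 against 61.4% ± 6.53, n = 6 each, log2 ratio -0.80, SE 0.21, limma adjusted p = 0.0162), and Tdrd1 was the 1 of 10 starts called, against a background of 4.18% of all starts. Over the whole 1-kb window of Tdrd1 it was -4.13 points (adjusted p = 0.0855), within 500 bp of any start site -7.54 points (0.0223), and over 1 kb without B6 male 2 -5.14 points (0.0349). Leaving out any other single animal gave no call of Tdrd1 over 1 kb. The F1 animals were at 50.3% ± 9.85 (n = 12), and their range of 31.6% to 64.7% held that of the B6 parents and overlapped that of the C3 parents. Depth at this start was 18.2 reads per CpG in B6 and 16.6 in C3 parents, and no SNV between the strains lay within 250 bp of any of the 10 reference starts. The 1-kb promoter of Tdrd1 held 1 SNV, 414 bp downstream of the start (G in B6, A in C3) and not on a CpG of the table. The call did not hold without B6 female 1, B6 male 1, B6 male 3 or C3 female 2 (adjusted p up to 0.0732).

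The other comparisons called 0 of the 10 promoters by limma. Sires against dams gave 0 calls (background 0.771%, 1 gene at an unadjusted p under 0.05), dams against virgin F1 females 0 (background 0.0969%, 0 genes), and sires against F1 males 0 (background 0.0388%, 1 gene). B6C3F1 against C3B6F1 gave 0 (background 0.00969%, 1 gene), F1 males against F1 females 0 (background 0.228%, 1 gene) and the strain by sex interaction in parents 0 (background 0%, 2 genes). The quasi-likelihood test of edgeR called 0 in each of these 6 comparisons too. Among the genes with an unadjusted p under 0.05 were Ddx4 in sires against dams (-3.09 points, adjusted p = 0.267) and F1 males against females (-2.44 points, 0.69), Brdt in sires against F1 males (3.52 points, 0.999) and Tex101 in the reciprocal crosses (3.05 points, 0.304), with adjusted p in parentheses. A p that misses the threshold does not show that the groups were alike.

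In the F1 animals the means of all 10 starts were lower in males than in virgin females (differences of -0.15 to -10.98 points), and none was called (0 of 10 by limma, background 0.0932%, 2 at an unadjusted p under 0.05). The 10 starts come from the same F1 animals and do not count as replicates, and the share of all starts with this sign was not computed. Of the 10 gene bodies, 8 were higher in F1 males and 2 lower. The largest difference at a start was that of Tdrd1, at 44.8% ± 8.67 in F1 males and 55.8% ± 8.13 in F1 females (-10.98 points, adjusted p = 0.628, n = 6 each). Ddx4 was at 74.7% ± 5.36 and 80.9% ± 2.96 (-6.14 points, adjusted p = 0.919). In the parents the same sign was found for 6 of the 10 starts, and the widest difference was that of Ddx4 (76.6% ± 8.75 in sires and 84.8% ± 4.60 in dams, -8.24 points, adjusted p = 0.329). At the starts limma also called 0 of 10 between sires and dams (background 0.175%, 2 at an unadjusted p under 0.05), dams and F1 females (0.0932%, 1), sires and F1 males (0.0699%, 1) and the reciprocal crosses (0.00583%, 2), and for the interaction (0.00583%, 1).

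The genes were also tiled into 500-nt windows. Of the 242 windows of the 10 genes that could be tested, 47 in promoters and 195 in gene bodies, 8 differed between B6 and C3 parents (3 higher and 5 lower in B6), against 6.63% of all windows (2.34% higher and 4.29% lower). The largest was in an intron of Tdrd1, chr19:56938001-56938500, 37302 to 37801 bp downstream of the start, with 11 CpGs. B6 males had 81.1%, 85.9% and 83.4% there and B6 females 76.3%, 77.0% and 74.3%, while C3 males had 61.6%, 58.1% and 68.4% and C3 females 56.5%, 56.9% and 63.75%. No C3 animal reached the lowest B6 animal. The difference was 18.8 points (79.7% ± 4.54 against 60.9% ± 4.64, log2 ratio 1.35, SE 0.15, limma adjusted p = 5.19e-08), and it was called without each of the 24 animals in turn. The F1 animals lay between the strains at 71.1% ± 3.65, and 2 SNVs lay in the window, 0 of them on a CpG of the table. The window held 229 to 405 counts in the B6 parents and 80 to 193 in the C3 parents, and the part of this depth gap in the difference was not tested.

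The window over the Tdrd1 start, chr19:56900501-56901000 (from -198 to 301 bp relative to it, exon included), was the promoter window that differed. B6 parents ran from 44.0% to 56.5% and C3 parents from 56.75% to 73.4% over its 44 CpGs, and the ranges did not overlap. The difference was -12.7 points (50.1% ± 5.08 against 62.8% ± 6.29, limma adjusted p = 0.0131), opposite in sign to that of the intron. The adjusted p was over 0.05 without B6 female 1 or C3 female 2 (adjusted p up to 0.0519), and the F1 animals were at 52.5% ± 9.54. In an intron of Ddx4, chr13:113407001-113407500, 5 CpGs were at 59.6% ± 5.76 in B6 and 71.9% ± 4.83 in C3 parents (-12.3 points, adjusted p = 0.00188), with ranges that overlapped slightly and F1 animals between at 66.0% ± 3.57. The remaining 5 windows, in gene bodies of Sycp1, Brdt, Asz1 and Tdrd1, differed by -6.71 to 5.96 points. When each of the 24 animals was left out in turn, the Asz1 and Tdrd1 windows were called 14 times each and 1 Sycp1 window 16 times. The other Sycp1 window was called 24 times and the Brdt window 22 times.

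Between sires and dams 1 of the 242 windows was called (background 0.974%, with 0.462% higher and 0.512% lower in sires), just upstream of Ddx4 at chr13:113442501-113443000, from -482 to 17 bp relative to the start. The B6 sires read 68.5%, 83.2% and 80% and the C3 sires 72.1%, 80.7% and 86.5%. The B6 dams read 87.8%, 90% and 84.4% and the C3 dams 86.1%, 97.2% and 88.2%. The sires were lower by 10.4 points (78.5% ± 6.82 against 89.0% ± 4.48, n = 6 each, log2 ratio -1.16, SE 0.27, limma adjusted p = 0.0212), although 1 C3 sire lay within the range of the dams. The 12 F1 animals averaged 82.4% ± 4.48, between 70.8% and 87.6%. Single animals had as few as 57 counts in this window, so it was not tested where at least 100 reads were required. With only CpGs that had at least 10 reads in every animal, 0 windows were called between sires and dams. The call did not hold without B6 female 1, B6 female 2, B6 male 1, C3 female 2 or C3 male 1 (adjusted p up to 0.089). The other 5 comparisons called 0 of 242 windows by limma (backgrounds of 0.181%, 0.0143%, 0.00192%, 0.343% and 0.00178% for dams against F1 females, sires against F1 males, the reciprocal crosses, F1 males against females and the interaction).

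**Figure D5:**
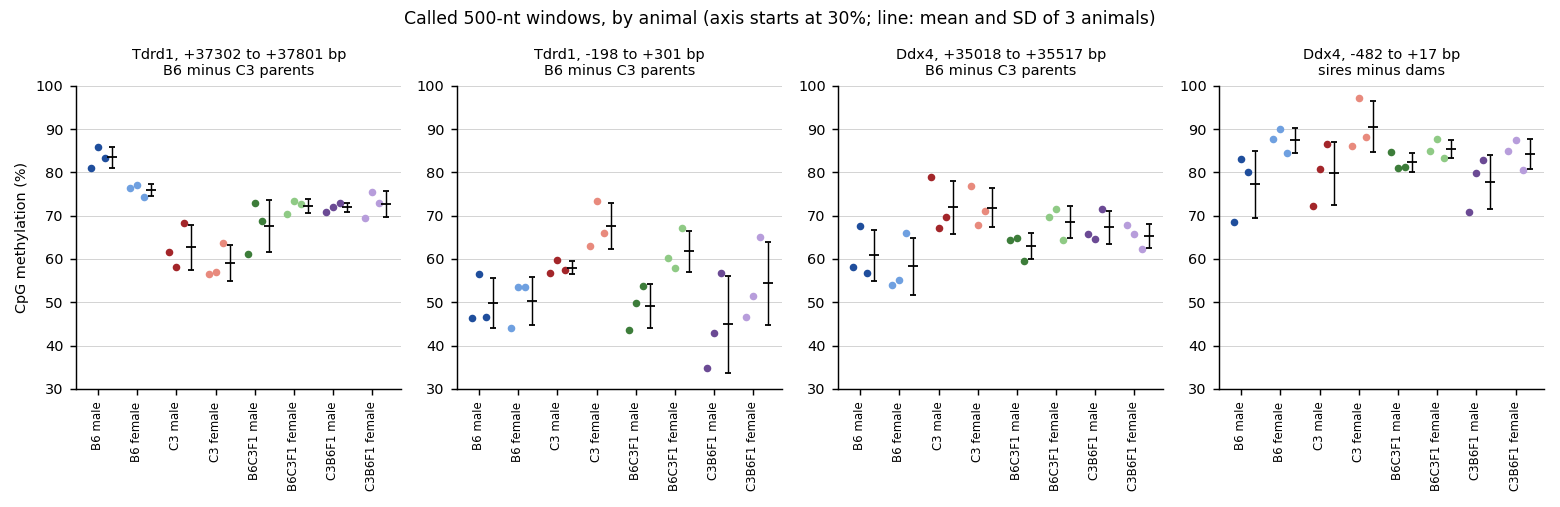
Methylation (%) of 4 called 500-nt windows of Tdrd1 and Ddx4, 1 point per animal, with the mean and SD of the 3 animals of each group (the axis starts at 30%). B6 minus C3 parents is 18.8 points in the intron window of Tdrd1, with the F1 mean between, and -12.7 points in its start window. It is -12.3 points in the Ddx4 intron window, and sires minus dams is -10.4 points in the window before Ddx4. The ranges of the compared groups overlap in both Ddx4 windows and not in the Tdrd1 windows.

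The gene bodies had a median level close to that of other genes, and 8 of the 10 were over 80%, against 60.3% of all gene bodies. Their levels ran from 70.8% ± 1.80 in Dazl to 92.3% ± 0.906 in Sycp3, with a median of 83.6% against 82.5% over the 18404 gene bodies tested. Of the 10 bodies, 2 were lower in B6 than in C3 parents by limma, against a background of 49.4% of all gene bodies (5.41% higher and 44% lower). Mael was at 81.55% ± 0.698 and 83.1% ± 0.501 (-1.51 points, adjusted p = 0.00242), and Brdt at 87.2% ± 0.478 and 88.35% ± 0.349 (-1.11 points, adjusted p = 0.00285). In sires 2 of the 10 bodies were higher than in dams (background 23%, with 16.9% higher and 6.12% lower), Asz1 at 80.6% ± 0.441 and 78.9% ± 0.482 (1.70 points, adjusted p = 0.000138) and Sycp1 at 84.5% ± 0.722 and 83.4% ± 0.774 (1.10 points, adjusted p = 0.0446). The 6 sires lay above the 6 dams in Asz1, whereas the ranges overlapped in Sycp1, whose call did not hold without any 1 of 14 animals. The Asz1 body was at 80.6% ± 0.336 in F1 males and 79.7% ± 0.287 in virgin F1 females (n = 6 each), which was not called. In the other comparisons 0 bodies were called by limma (backgrounds 7.36%, 0.0163%, 0.0163%, 2.9% and 0.0163%, with 3, 0, 1, 1 and 0 at an unadjusted p under 0.05).

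The letters around the starts were searched for short motifs of the proteins named in the background. CACGTG, an E-box bound by MAX-containing dimers, and GCGGGA, a core of E2F sites, were counted on both strands from 250 bp before to 50 bp after the reference start. CACGTG was present in 6 of the 10 genes (Mael, Sycp1, Brdt, Sycp3, Ddx4 and Tdrd1), against 7.81% of all genes and 10.7% of high-class genes. GCGGGA was present in 4 of the 10 (Mael, Sycp1, Sycp3 and Ddx4), against 25.4% of all genes and 42.0% of high-class genes. A match is a description of the letters, and its absence says only that they are not in this window.

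The CpG inside CACGTG was less methylated than its neighbours in every gene where it was measured. In Sycp3, whose printed sequence holds the motif at 46 and 25 bp before the start, these CpGs were at 49.0% and 58.3%, the lowest 2 of 25, while the other CpGs at the start had a median of 82.3%. In Tdrd1 the CpG of the motif 11 bp before the start was at 22.1%, against a median of 50.6%. The corresponding values were 59.8% against 89.0% in Mael, 77.1% against 95.7% in Brdt and 83.3% against 94.3% in Sycp1, and the CpG of Ddx4 was not in the table. Over all genes with more than 50% methylation at the start, 224 such CpGs had a median difference of -15.0 points from their neighbours, and 91.1% were below them. The CpG of GCGGGA showed no such difference over 268 matches (0.443 points, 46.6% below). In the printed sequences the motif appears as caCGtg.

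Other germ cell genes were set beside the 10, in lists drawn from general knowledge but with earlier results of these data known. Among 17 other genes of the piRNA pathway and nuage the median at the start was 81.5%, with 9 over 80%, 3 between and 5 under 20%. Tex19.1, which protects the germline from transposons, had 93.6% and Tdrd12 91.9% in the 1-kb promoter, while Tdrkh (13.3%) and Exd1 (14.5%) were low. Among genes of the synaptonemal complex and recombination the median of the 19 tested starts was 64.8% (6 over 80%, 7 between, 6 under 20%). Their 1-kb promoter levels ran from Hormad1 (91.7%) and Syce3 (89.6%) to Syce2 (13.9%) and Meiob (11.8%). Germ cell regulators had a median of 62.1% over 21 starts (7, 6 and 8). Their 1-kb promoter levels ran from Tex19.2 (93.4%) and Sohlh2 (92.6%) to Tfap2c (5.27%) and Prdm1 (4.29%). Later spermatogenic genes had a median of 61.5% over 19 starts (8, 8 and 3). Their 1-kb promoter levels ran from Tssk2 (95.0%) and Tnp1 (92.0%) to Hspa1l (25.6%) and Clgn (15.4%).

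The lists for comparison with somatic genes differed in level. All 22 housekeeping starts were under 20% (median 0.331%), as were all 14 starts of silencing factors, among them Dnmt3b, E2f6, Mga and Max (median 0.436%). The 16 hepatocyte starts had a median of 19.6%, with 7 between 20% and 80% and 9 under 20%, and 10 starts of markers of other liver cells a median of 44.5% (3 over 80%, 3 between, 4 under 20%). None of the housekeeping, silencing factor or hepatocyte starts was over 80%.

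Between the strains the other germ cell promoters that were called were mostly lower in B6. The counts were 0 higher and 3 lower of 17 for the piRNA list, 0 and 5 of 23 for the synaptonemal list, 0 and 5 of 23 for the germ cell regulators and 1 and 4 of 21 for the later genes, against 4.88% of all promoters higher and 8.8% lower in B6. The largest difference was in Rec8, a meiotic cohesin subunit, at -14.9 points (limma adjusted p = 1.06e-09), followed by the recombinase gene Dmc1 at -9.55 points (0.000429) and the piRNA gene Rnf17 at -8.74 points (2.08e-05). Also lower were Rad21l (-5.64), Tdrd7 (-6.07), Henmt1 (-5.56), Prm1 (-7.26), Tuba3a (-5.90), Pou5f1 (-5.68), Nanos3 (-4.34) and Ythdc2 (-2.998), and Spaca1 was higher (8.33). Of the hepatocyte promoters 3 of 18 were higher in B6 (Cps1 10.2, Apoa2 10.2 and Fgb 7.43 points) and none lower, Cd3e (-3.81) was the 1 of 13 promoters of other liver cells called, lower in B6, and 0 of 14 silencing factors were called. The part of cell types in the strain differences was not tested. In the other 6 comparisons 0 promoters of any of these 8 lists were called by limma.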

How the data were processed

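Whole-genome bisulfite libraries of 24 livers (8 groups of 3 animals) were analysed, and the ChIP and input samples of the series were not analysed here. The authors deposited counts, the numbers of methylated and unmethylated reads at each CpG of each animal, in tables of the whole series. Per the labels and the study's methods, reads were processed with CASAVA 1.8.2, aligned to mm9 with Bismark 0.7.8 on Bowtie 0.12.8, freed of duplicates with the Bismark tool and merged per animal, and CpGs were kept where mm9, B6 and C3 share the dinucleotide and most mapped bases of both strains matched it. The deposited list of single nucleotide variants between the strains holds positions and bases. The table holds 18887127 autosomal CpGs, 92.7% of those in mm9, and 861 of the 914 promoter CpGs of the 10 genes, and the reason for each missing CpG was not tested.

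The 10 genes and all gene lists were chosen with earlier results of these data known. Counts were summed over the CpGs of each region and given as the percent methylated per animal. Regions needed at least 5 CpGs and 30 reads in every animal. limma 3.58.1 (R 4.3.3, trended and robust) was run on log2((methylated + 1)/(unmethylated + 1)) with a mean for each of the 8 groups, fitted to all promoters (20635), gene bodies (18404), 500-nt windows (1456902) or starts (17160), with Benjamini-Hochberg adjustment over all regions of the kind, and regions were called at an adjusted p below 0.05. A difference is in percentage points of the group means. Parents and F1 animals share the estimate of spread, and comparisons that share groups are not independent. The study's own tests per CpG were not used. edgeR 4.0.16 (quasi-likelihood) was an alternative for promoters and gene bodies. In simulated counts for the comparison of parental strains (20635 promoters), shifts of 10 points were recovered at 89% and shifts of 20 points at 99% of 100 promoters each, with 14 false calls. The shifted promoters were all of intermediate level, whereas 7 of the 10 germline promoters were over 80%, so these shares need not hold for them. Smaller shifts were not simulated. Counting SDs cover counting error only.

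All 10 genes were named, and in each other list the 2 highest and 2 lowest promoters and up to 3 called genes per comparison with the largest differences. Of called windows, up to 3 per comparison were named. The strain comparison of the housekeeping promoters is not reported here. Alternatives were a pseudocount of 5, an arcsine square root scale, a replicate block, at least 100 reads, only CpGs with at least 10 reads in every animal, edgeR, a 500-bp window, coding starts only, a difference of at least 10 points, a mean over CpGs and leaving out each animal. The window of 250 bp around the reference start was added after the data were seen. Sequences were read from mm9.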

Additional observations from a re-analysis of the deposited data

How the results depend on the processing

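Leaving out each animal in turn, the number of the 10 promoters called between B6 and C3 parents ranged from 0 to 2. It was 0 with a minimum difference of 10 points, with CpGs of at least 10 reads in every animal and with coding starts only, and 2 within 500 bp of a start. The Brdt difference turned to 0.34 points (adjusted p = 0.884) with CpGs of at least 10 reads in every animal. No gene body was called (0) at a minimum of 10 points in either the strain or the sires against dams comparison, and 1 was called between sires and dams with the deeper CpGs. Without single animals the body counts were 2 to 3 (strain), 1 to 2 (sires against dams) and 0 to 1 (dams against F1 females, 1 without C3 female 2 or C3B6F1 female 1). For windows the strain count was 3 at a minimum of 10 points, 4 of 170 with at least 100 reads, 5 of 193 with the deeper CpGs and 5 to 9 without single animals. For sires against dams it was 0 of 170 with at least 100 reads, a limit that the called Ddx4 window did not meet in every animal. It was 0 of 193 with the deeper CpGs and 0 to 3 without single animals, and for F1 males against females 0 to 1 (1 without C3B6F1 female 3). The median promoter level was 87.35% with coding starts only and 88.7% within 250 bp of the reference start, against 85.1%, and 84.97% to 85.17% without single animals. Otherwise the cause of these changes was not tested.

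The labels do not say that equal replicate numbers mark a family, and the animals were not treated as paired. Of 84 pairs of animals from different groups with the same number, 19 had deviations that correlated above 0.1 (highest 0.354), with a mean of 0.0305 against -0.0153 for different numbers and of 0.0689 for number 1. With a replicate block the strain comparison called 2 promoters (Tdrd1 joined, adjusted p = 0.0495), 2 bodies and 8 windows, and sires against dams 0 promoters, 2 bodies and 2 windows, and 0 were called in the other 5 comparisons.

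The Ddx4 start had as few as 111 counts in an animal and 26 of its 59 CpGs in the table. The levels are those of whole liver, of CpGs shared by both strains, with 3 animals per group.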
